A study of Homo sapiens with 25 samples.

Results

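The genes examined here encode 6 proteins that immature granulocytes pack into their azurophil granules: MPO, AZU1, PRTN3, ELANE, CTSG and DEFA4. They were followed through 4 windows of the hg18 genome: chr17:53680001-53730000 for MPO, chr19:770001-820000 for the neighbouring genes AZU1, PRTN3 and ELANE, chr14:24090001-24140000 for CTSG, and chr8:6760001-6880000 for the alpha-defensin cluster, which holds DEFA4. Every ChIP-seq peak that overlapped a window by at least 1 base was taken, which gave 435 of the 918840 peaks in 23 peak lists: 95 at MPO, 233 at AZU1-PRTN3-ELANE, 23 at CTSG and 84 at the defensins. The windows together span 270 kb. The position of each gene inside its window on hg18 was not analysed here, nor whether neighbouring genes reach into a window. A peak is therefore described by its place in the window and not as a promoter or an enhancer of a gene.

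ChIP-seq, which recovers DNA bound to a protein or to a modified histone, had been run on NB4, a long-established line of human leukemia cells of the promyelocytic kind. Antibodies against H3K4me1, H3K4me2, H3K4me3 and H3K27ac were each used after 24 h of DMSO (the solvent control), of MC_2580 (which inhibits LSD1, a demethylase of histones, at a dose not given in the sources used here), of retinoic acid (RA) at 0.01 µM, of RA at 1 µM, and of MC_2580 with RA at 0.01 µM (below, the combination). LSD1 was profiled in DMSO and MC_2580, and the transcriptional repressor GFI1 in untreated cells. The 2 input samples of the 25 in the series entered no comparison. Each group held 1 library, so no value below has a replicate, a spread or a test, and every difference is between 2 libraries. The H3K4me3 library of the combination carries RA at 1 µM in its title and 0.01 µM in its treatment field and in the design text. The treatment field was followed, and values of that library carry this doubt. Cell identity was not checked against marker genes, since the peaks were not tied to genes.

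As background, azurophil granules form at the promyelocyte stage, and their proteins are made in that short stage and stored. MPO is a heme enzyme that makes hypochlorous acid, ELANE, PRTN3 and CTSG are serine proteases, AZU1 is an enzymatically inactive relative of these proteases with antibacterial activity, and DEFA4 is a small antimicrobial peptide. Acute promyelocytic leukemia cells are arrested near this stage, and RA drives them on toward granulocytes. H3K4me3 marks mostly active promoters, H3K4me1 and H3K4me2 mark enhancers and the borders of promoters, and H3K27ac marks active forms of both. LSD1 removes methyl groups from H3K4me1 and H3K4me2 and is recruited to DNA by GFI1 among others.

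Promoter sequences show what regulatory letters stand before these genes. Of the 5 members outside the defensin cluster, 3 had a promoter in the RefSeq table on GRCh38.p14, a different build from that of the peaks, and MPO and ELANE had none. The 250 bases before the start of each transcript are printed 5′ to 3′ on the gene's strand, with letters that match a searched motif in capitals. They lie at chr19:827587-827836 (plus strand) for AZU1, chr19:840749-840998 (plus strand) for PRTN3 and chr14:24576251-24576500 (minus strand) for CTSG.
AZU1: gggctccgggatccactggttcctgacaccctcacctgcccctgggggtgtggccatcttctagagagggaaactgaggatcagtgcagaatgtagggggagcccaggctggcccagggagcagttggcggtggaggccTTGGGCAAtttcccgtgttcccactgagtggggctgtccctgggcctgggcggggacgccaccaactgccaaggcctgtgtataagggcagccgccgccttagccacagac
PRTN3: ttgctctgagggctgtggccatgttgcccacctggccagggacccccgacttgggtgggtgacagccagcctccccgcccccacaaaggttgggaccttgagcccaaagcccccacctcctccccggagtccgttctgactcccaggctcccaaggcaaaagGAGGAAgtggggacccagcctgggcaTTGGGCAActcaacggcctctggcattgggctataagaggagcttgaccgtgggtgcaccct
CTSG: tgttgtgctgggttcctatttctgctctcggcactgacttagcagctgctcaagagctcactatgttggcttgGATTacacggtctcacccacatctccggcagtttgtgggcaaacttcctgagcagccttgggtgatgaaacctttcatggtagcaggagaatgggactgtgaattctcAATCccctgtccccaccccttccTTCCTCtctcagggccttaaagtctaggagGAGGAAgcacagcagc
Capitals in AZU1 and PRTN3 show the same match, TTGGGCAA, to the C/EBP-type motif TTGCNNAA, read on the other strand, at positions -111 and -62 from the start. PRTN3 also has GAGGAA, a motif of the myeloid factor PU.1, at -88, and CTSG has it at -16 and, on the other strand, at -46. CTSG further holds AATC, the core of the GFI1 motif, at -69 and, on the other strand, at -177. Both strands were searched for 5 motifs, none of the matches overlap, and TGTGGT (RUNX1) and AGGTCA (bound by RA receptors) had no match in these 3 windows. Among all 35116 promoters of the table, cut to the same length, 64.8% hold AATC, 9.05% TTGCNNAA, 23.6% GAGGAA, 11.0% TGTGGT and 12.1% AGGTCA. A match describes letters and not a bound site.

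The lists differ in length and in total coverage, and this touches every ratio below. Over the whole genome the covered bases of a treated list were 0.793 to 1.04 of DMSO for H3K4me1, 0.919 to 1.08 for H3K4me2, 1.32 to 1.57 for H3K4me3, 0.748 to 1.56 for H3K27ac and 1.92 for LSD1. The H3K27ac list of RA 0.01 µM was the longest of its mark with 55793 peaks, and that of MC_2580 the shortest with 24552. Each peak carries the authors' score, a peak-caller value that is comparable only within its list. Scores start at 50 in the histone and GFI1 lists. The LSD1 lists, of 12562 peaks in DMSO and 18822 with MC_2580, start higher, at 234.04 in DMSO and above that with MC_2580. Below, a window is called higher or lower where its covered bases differ at least 1.5-fold from DMSO, and the background is the share of all 50 kb tiles of the genome, with a peak in either list, that pass the same fold in the same direction. A tile with no DMSO peak counts as higher. A count of 1 called window among 4 is too small to stand apart from a background. The size of each called change, and of some others, is therefore also ranked among tiles of the window's own width. A tile cannot lose more bases than it held in DMSO, so ranks of losses depend on how densely a window was marked.

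In DMSO the MPO and AZU1-PRTN3-ELANE windows were among the most densely marked stretches of the genome, and the other windows were not. Peaks covered 62.7% of the MPO window with H3K4me1, 33.2% with H3K4me2, 37.5% with H3K4me3 and 61.4% with H3K27ac, shares that exceeded those of 98.0%, 99.4%, 99.6% and 96.8% of the marked tiles. The AZU1-PRTN3-ELANE window had 61.0%, 37.2%, 31.7% and 61.4% covered, above 97.7%, 99.7%, 98.9% and 96.8% of tiles. CTSG had 7.67%, 4.97%, 4.58% and 11.8%, and the defensins had 15.2% with H3K4me1, 3.59% with H3K27ac and no H3K4me2 or H3K4me3 peak. The defensin H3K4me1 share stood above 58.1% of tiles and its H3K27ac share above 13.6%. The defensin window was ranked here against 50 kb tiles although it is 120 kb wide, and part of it had no peak in any list. Thus the windows of genes of the same granule differed in their called marks in the control cells.

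Over the 4 windows the 5 conditions differed most in H3K27ac. H3K27ac peaks numbered 15 in DMSO, 9 with MC_2580, 22 with RA 0.01 µM, 19 with RA 1 µM and 14 with the combination, and they covered 71602, 57751, 131030, 122632 and 95105 bases. Relative to DMSO this was 0.807, 1.83, 1.71 and 1.33. Dividing by the ratios of the whole lists gives 1.08, 1.17, 1.53 and 1.13, so the lower value with MC_2580 does not keep its direction. H3K4me1 had 22, 17, 25, 22 and 23 peaks over 83905, 82460, 92381, 96938 and 103606 bases in the same order. Its ratios to DMSO were 0.983, 1.10, 1.16 and 1.23, where those of the whole lists were 0.989, 0.793, 0.881 and 1.04. The highest ratio was thus that of the list that grew. H3K4me2 had 31, 37, 33, 45 and 34 peaks, short ones with a median width of 683 to 939 bases, over 37643, 40320, 40679, 38709 and 44096 bases. H3K4me3 had only 7, 7, 11, 9 and 9 peaks, over 36864, 43286, 55715, 45905 and 41499 bases. Its ratios were 1.17, 1.51, 1.25 and 1.13, and divided by those of the whole lists 0.746, 1.01, 0.934 and 0.853. Windows differed in which of them carried these changes.

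**Figure D1:**
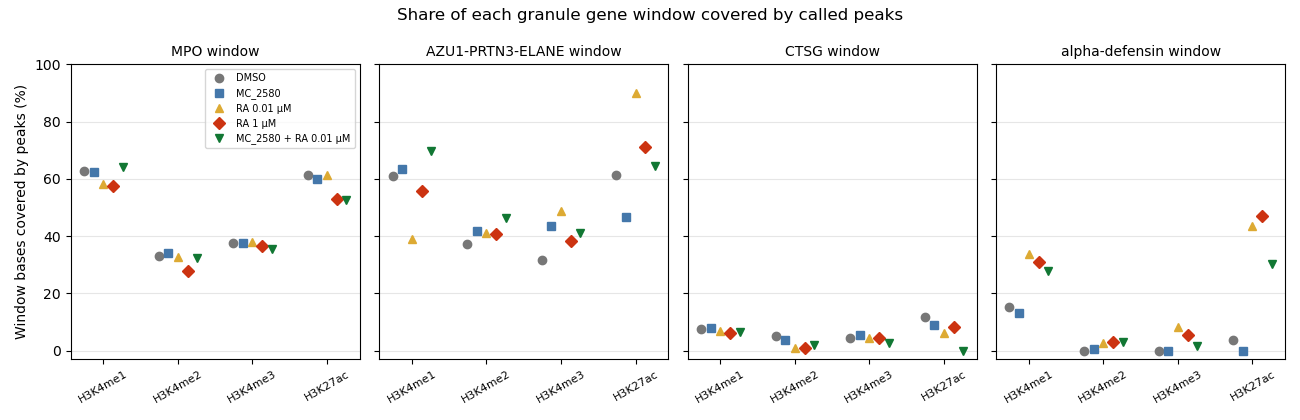
Percent of the bases of each window (y axis) covered by peaks of the 4 histone marks (x axis) in the 5 conditions, 1 library per point. The points of a mark lie close together at MPO, H3K27ac and H3K4me1 spread widely at AZU1-PRTN3-ELANE, and at the alpha-defensin window H3K4me1 and H3K27ac of the 3 RA conditions lie above DMSO and MC_2580.

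MPO lies between LPO and TSPOAP1 in RefSeq gene order. Its window kept its marks in all 5 conditions at nearly the same number of bases. H3K4me3 covered 18731 bases in DMSO, 18831 with MC_2580, 19056 with RA 0.01 µM, 18179 with RA 1 µM and 17757 with the combination. Nearly all of this was 1 domain, chr17:53700953-53718434 in DMSO, which at 17482 bases was the 6th widest of the 21688 H3K4me3 peaks of that list. In the treated lists the domain was 17231, 17471, 16918 and 16311 bases wide, and 16311 bases were covered by H3K4me3 in every condition. H3K4me1 covered between 28733 and 31988 bases, H3K4me2 between 14017 and 17035 and H3K27ac between 26371 and 30708, so that the highest condition exceeded the lowest by 1.11, 1.22 and 1.16 times, and by 1.07 times for H3K4me3. No histone mark of this window was called higher or lower in any treatment on the bases as covered. Since the H3K4me3 lists grew and this domain did not, division by the whole-list ratios gives 0.639, 0.679, 0.728 and 0.719 for H3K4me3, of which the value with MC_2580 passes 1.5-fold, as does 0.637 for H3K27ac with RA 0.01 µM.

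Within this stable coverage the H3K27ac and H3K4me1 domains at MPO were called as more peaks with RA. In DMSO a H3K27ac peak of 27130 bases, chr17:53698599-53725728, spanned the domain, and with MC_2580 it was 26728 bases wide. The widest H3K27ac peak measured 20988 bases with RA 0.01 µM, 19386 with RA 1 µM and 12705 with the combination, where the old domain held 4 peaks. Bases covered were 0.862 of DMSO with RA 1 µM and 0.859 with the combination, and no H3K27ac base was new in these lists. Among 50 kb tiles, 8.94% and 8.85% lost at least as many H3K27ac bases. The H3K4me1 domain of 28555 bases in DMSO, chr17:53699393-53727947, was 28138 bases with MC_2580, 10624 with RA 0.01 µM, 22445 with RA 1 µM and 24975 with the combination. H3K4me2 fell apart most with RA 1 µM, into 11 peaks against 7 in DMSO, and its coverage dropped by 2561 bases, a loss that 2.37% of tiles reached. With RA 0.01 µM the H3K4me1 pieces ran from 53699708 to 53727344, each within 1 kb of the next. The H3K27ac pieces of that domain with RA 0.01 µM and the H3K4me1 pieces in the combination lay as close. With RA 1 µM both marks had a gap wider than 1 kb, as had H3K27ac in the combination. How many of the breaks come from the caller joining or splitting neighbouring peaks was not tested.

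A second, smaller site lay at the lower edge of the MPO window, apart from the domain. There H3K4me1, H3K4me2, H3K4me3 and H3K27ac each had a peak in all 5 conditions, at chr17:53681246-53682494 for H3K4me3 in DMSO. Its H3K4me3 was weak, with scores of 68.3, 127.92, 62.01, 62.1 and 62.13, while the H3K4me2 peak at the same place scored 1515.8 in DMSO and 3100 or more in the treated lists. No peak of any list covered the 8574 bases from 53685488 to 53694061, which separate this site from the domain.

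**Figure D2:**
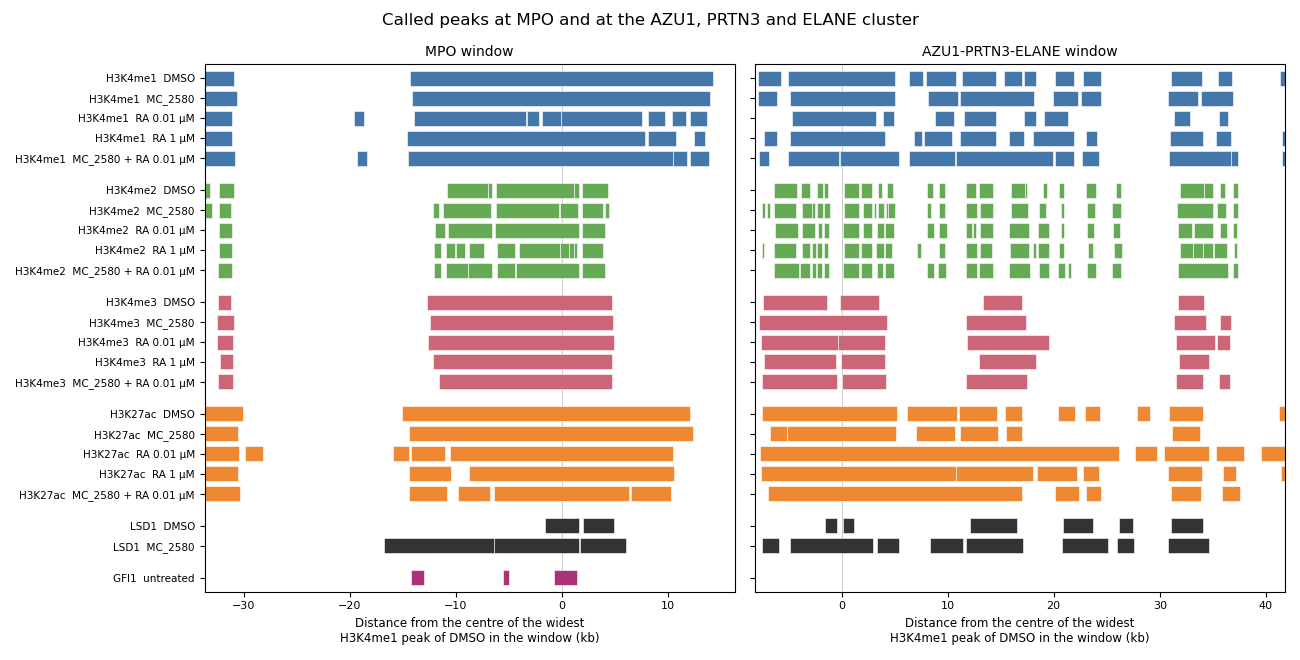
Called peaks of the 23 lists (rows, coloured by antibody) across the MPO window and the AZU1-PRTN3-ELANE window, against the distance in kb from the centre of the widest H3K4me1 peak of DMSO. At MPO the H3K4me3 domain has nearly the same extent in 5 conditions and H3K27ac is called as more peaks with RA. In both windows LSD1 peaks widen with MC_2580.

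AZU1, PRTN3 and ELANE lie between PLPPR3 and CFD in RefSeq gene order. Their window carried the 4 H3K4me3 sites of DMSO in every condition. H3K4me3 covered more of its bases in all 4 treatments, though in 3 treatments by less than the whole list grew. H3K4me3 covered 15845 bases in DMSO, 21738 with MC_2580, 24472 with RA 0.01 µM, 19127 with RA 1 µM and 20552 with the combination, or 1.37, 1.54, 1.21 and 1.30 of DMSO. At least 98.5% of the DMSO bases stayed covered in each. Only RA 0.01 µM passed 1.5-fold, in this window and at the defensins, 2 of 4 windows against 44.3% of tiles. By size, 1.46% of tiles gained as many H3K4me3 bases as this window did with RA 0.01 µM. Divided by the whole-list ratios the 4 values are 0.872, 1.03, 0.905 and 0.983. The RA 0.01 µM value also stays under 1.5-fold in lists of equal length or with a minimum score of 100. The widest site, chr19:770790-776857 in DMSO, was 6068 bases there, and with MC_2580 it ran together with the next site into a peak of 12091 bases.

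H3K27ac at this cluster covered the fewest bases with MC_2580 and the most with RA 0.01 µM, the shortest and the longest of the lists of this mark. Peaks numbered 9, 6, 5, 7 and 5 over 30681, 23388, 45053, 35654 and 32249 bases, in the order DMSO, MC_2580, RA 0.01 µM, RA 1 µM and combination. With RA 0.01 µM a single peak of 33876 bases, chr19:770517-804392, replaced 6 DMSO peaks, and 90.1% of the window was covered. The ratio of 1.47 missed the 1.5-fold rule, passed it at a minimum score of 100 (1.62) and in lists of equal length (1.53), and is 0.939 after division by the whole-list ratio. Among tiles, 9.39% gained as many bases. That list is also the longest, and both flanks of the window had more H3K27ac with RA 0.01 µM, 2.91 and 4.55 times DMSO, so the excess did not stop at the window. RA 1 µM gave 1.16 and the combination 1.05, or 1.04 and 0.898 after division. MC_2580 gave 0.762, which is 0.631 at a minimum score of 100 but 1.02 after division, and its flanks had 0.567 and 0.592. With MC_2580, 76.0% of the DMSO bases stayed covered. Of the 9 DMSO peaks, 4 had no partner, the strongest of these being chr19:801185-802552 with a score of 141.93. The main peak, chr19:770715-783381 in DMSO, stayed in all lists, and its longest stretch covered throughout measured 10303 bases.

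H3K4me1 and H3K4me2 moved apart at this cluster with RA 0.01 µM. H3K4me1 covered 30494 bases in DMSO, 31708 with MC_2580, 19433 with RA 0.01 µM, 27947 with RA 1 µM and 34906 with the combination. The value of RA 0.01 µM was 0.637 of DMSO, the only one of the 4 windows called lower, against 33.4% of tiles. Its loss of 22.1 percentage points was matched by 0.632% of tiles, and the ratio is 0.804 after division by that of the whole lists. Tiles with less than that share in DMSO could not match it. A share of 22.3%, that of MPO's lower flank in DMSO, already exceeded 72.5% of marked tiles. The flanks on either side had 0.541 and 0.428 of their DMSO bases, lower than the window itself. The combination, with the same RA dose, had 1.14. H3K4me2, scattered over 22, 25, 22, 25 and 22 peaks, covered 18579, 20862, 20558, 20441 and 23096 bases. Its highest value, 1.24 of DMSO in the combination, was a rise of 9.03 percentage points that 0.985% of tiles reached. The flanks had H3K4me2 ratios of 1.26 and 1.27 in the combination. With RA 0.01 µM they had 1.18 and 1.28, against 1.11 in the window, so the rise was not particular to the window. None of the H3K4me2 ratios at this cluster passed 1.5-fold.

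CTSG has CMA1 and GZMH as RefSeq neighbours. Its window held 1 site with several marks, near chr14:24113433-24117265, the H3K4me1 peak of DMSO. A weak H3K27ac peak of 1040 bases, chr14:24102007-24103046 with a score of 52.05, lay apart from it in DMSO and had no partner in any treatment. H3K4me1 stayed there in every condition, 3833, 3987, 3489, 3097 and 3207 bases wide, and 2858 bases were covered throughout. In the RA conditions H3K4me1 covered 0.910, 0.808 and 0.837 of its DMSO bases. Tiles that lost as many H3K4me1 bases were common, at 72.0%, 50.3% and 29.8%. Division by the whole-list ratio takes the RA 0.01 µM value to 1.15, so it does not keep its direction. The other marks also covered fewer bases in the window under RA. For H3K4me3 the change with RA 0.01 µM and RA 1 µM was small, at 0.992 and 0.941 of DMSO. Over the window H3K27ac covered 5905 bases in DMSO, 4865 of them at the site, 4488 with MC_2580, 3055 with RA 0.01 µM, 4119 with RA 1 µM and none with the combination. The site's H3K27ac peak, chr14:24111998-24116862, scored 1212.09 in DMSO, and its partners scored 416.78, 358.8 and 271.47 in their own lists. In the combination it had no partner, and among the 6960 DMSO peaks without one there, 39 (0.560%) scored as high or higher. CTSG was the 1 window of 4 called lower in H3K27ac with RA 0.01 µM, at 0.517 of DMSO against 16.4% of tiles, and with the combination, against 18.3%. By size, 11.2% of tiles lost as many H3K27ac bases with RA 0.01 µM and 6.04% with the combination. RA 1 µM gave 0.698 and was not called. Without the weak peak, which a minimum score of 100 removes, the ratios are 0.923 with MC_2580, 0.628 with RA 0.01 µM and 0.847 with RA 1 µM.

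H3K4me2 and H3K4me3 at CTSG were also lowest under RA. H3K4me2 covered 2486, 1805, 517, 492 and 1082 bases, and CTSG was the 1 window of 4 called lower with RA 0.01 µM (0.208 of DMSO, against 17.4% of tiles), RA 1 µM (0.198, against 22.0%) and the combination (0.435, against 9.96%). The peak of RA 1 µM, chr14:24113235-24113726 with a score of 65.44, overlapped no DMSO peak. Tiles that lost as many H3K4me2 bases were 2.67%, 4.59% and 2.85%. H3K4me3 was a peak of 2288, 2717, 2269, 2152 and 1368 bases. The combination's 0.598 of DMSO was again the 1 window of 4 called lower, against 4.16% of tiles, in a list whose whole coverage was 1.32 of DMSO, and this is the library with the doubtful dose. By size, 4.04% of tiles lost as many H3K4me3 bases there. Dividing by whole-list ratios moved these called CTSG ratios to 0.222, 0.215, 0.403 and 0.453 and kept each call. Division also takes H3K4me3 with RA 0.01 µM (0.662) and H3K27ac with RA 1 µM (0.623) past 1.5-fold.

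**Figure D3:**
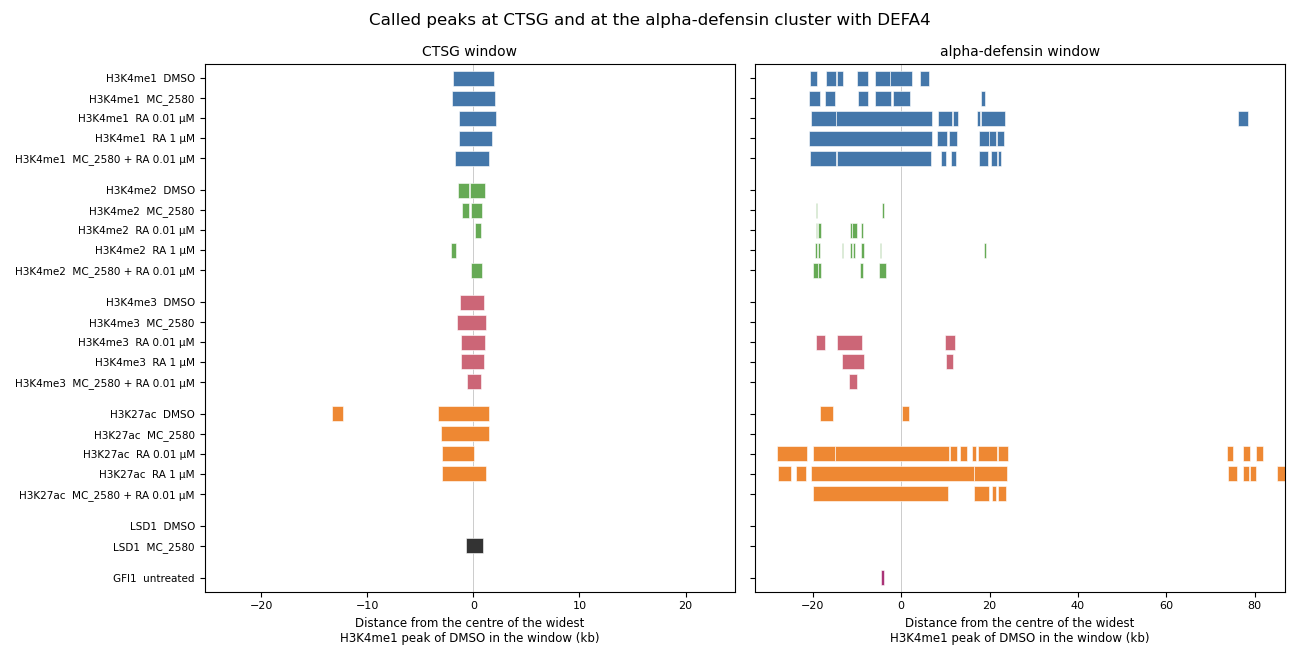
Called peaks of the 23 lists (rows, coloured by antibody) across the CTSG window and the alpha-defensin window, against the distance in kb from the centre of the widest H3K4me1 peak of DMSO. The H3K27ac row of the combination is empty at CTSG, and at the defensins the 3 RA conditions carry wide H3K4me1 and H3K27ac peaks that DMSO and MC_2580 lack.

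The alpha-defensin window, where DEFA4 lies between DEFA6 and DEFA1 in RefSeq gene order, went from sparse to broad marking in the 3 RA conditions. H3K27ac covered 4308 bases in 2 peaks in DMSO, none with MC_2580, 52340 in 11 peaks with RA 0.01 µM, 56393 in 8 peaks with RA 1 µM and 36485 in 4 peaks with the combination. These RA values are 12.1, 13.1 and 8.47 times DMSO, and 7.77, 11.7 and 7.23 times after division by the whole-list ratios. The defensin window was the 1 of 4 called higher in H3K27ac under each, against 52.6%, 32.1% and 35.8% of tiles, shares that include tiles with no DMSO peak. By size the rise was 40.0, 43.4 and 26.8 percentage points, and 1.93%, 0.183% and 1.30% of 120 kb tiles rose as far. With MC_2580 alone it was the 1 window of 4 called lower, against 36.2% of tiles, and 26.9% of 120 kb tiles lost as many bases.

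Single peaks at the defensins were wide and high in their lists. RA 1 µM had a H3K27ac peak of 36920 bases, chr8:6772623-6809542, over both DMSO peaks. Next to it lay chr8:6809581-6817140, which scored 3201.32 and stood first among the 12910 H3K27ac peaks that RA 1 µM gained. RA 0.01 µM had 25695 bases at chr8:6778162-6803856, and the combination 30589 bases at chr8:6773078-6803666. Scores of 3100 and above pile up in these lists, so an order among them may not be one of strength.

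H3K4me1 was present at the defensins before RA and spread with it. It covered 18216 bases in DMSO, 15550 with MC_2580, 40335 with RA 0.01 µM, 37161 with RA 1 µM and 33505 with the combination. The ratios were 2.21, 2.04 and 1.84 under RA, each the 1 window of 4 called higher, against 8.93%, 10.9% and 20.7% of tiles. At least 99.1% of the DMSO bases stayed covered in the 3 RA conditions. By size, 8 of 13936 tiles of 120 kb (0.0574%) gained as much as the window did with RA 0.01 µM, 26 of 14018 (0.185%) with RA 1 µM and 102 of 14533 (0.702%) with the combination. In the first 2 of these lists the genome as a whole had less H3K4me1 than DMSO, with a median tile at -1.62 and -1.01 percentage points. RA 1 µM joined the sites into a peak of 27745 bases, chr8:6772384-6800128, where the widest DMSO peak had 5053.

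H3K4me3 and H3K4me2 appeared at the defensins where DMSO had no peak, so no fold is given. H3K4me3 covered no base in DMSO and MC_2580, 9918 with RA 0.01 µM, 6447 with RA 1 µM and 1822 with the combination. The defensin window counts as called higher in each, with tile backgrounds of 44.3%, 33.8% and 33.4%, and is the only window so called for the last 2. The main peak scored 1605.44 with RA 0.01 µM (chr8:6778671-6784359), a score that 29 of the 8101 gained peaks reach. With RA 1 µM it scored 1188.02 (chr8:6779818-6784624), a score that 38 of 6716 reach, and in the combination 165.58 (chr8:6781430-6783251), a score that 798 of 7170 reach. A weaker site at chr8:6803065-6805285 was called with both RA doses and not with the combination. H3K4me2 covered none in DMSO, 618 bases with MC_2580, 3308 with RA 0.01 µM, 3759 with RA 1 µM and 3820 with the combination, against tile backgrounds of 16.9%, 9.01%, 12.4% and 19.5%. By size, 23.9%, 1.41%, 1.59% and 3.57% of 120 kb tiles rose as far. The 2 MC_2580 peaks scored 67.82 and 58.3 and vanish at a minimum score of 100.

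From 6817416 to 6866929 in the defensin window no list had a peak, a stretch of 49514 bases. As background, this cluster holds near-identical tandem gene copies, onto which short reads cannot be placed uniquely. Whether the empty stretch reflects that was not tested, and no statement on chromatin there can be made.

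Flanks of equal width were compared with the windows for H3K27ac. Below the defensin window H3K27ac coverage was 1.32 of DMSO with RA 0.01 µM, 0.501 with RA 1 µM and 0.443 with the combination, while above it the ratios were 5.39, 5.39 and 3.45 from only 2003 bases in DMSO. The RA 1 µM peak chr8:6878171-6882554 crosses that upper border. At MPO the upper flank had 46651 bases of H3K27ac in DMSO and 0.899 to 0.978 of that in the treatments. It also held a further H3K4me3 peak of 21261 bases in DMSO. CTSG's lower flank had 3 peaks in 23 lists, and its upper flank had no H3K4me3. H3K27ac in that upper flank covered 5838 bases in DMSO, in peaks that scored at most 100.6. It covered 6777 with MC_2580, 1501 with RA 0.01 µM, none with RA 1 µM and 3775 with the combination. Coverage of this flank was thus also lower under RA, but in weak calls. The lowest score there was 50.53 in DMSO, and the peaks of RA 0.01 µM and the combination scored 52.31 and 130.04. Whether this goes with the change in the CTSG window was not tested.

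Compared peak by peak, the windows held gained H3K27ac peaks in the RA conditions and lost ones in each treatment. Of 15 DMSO peaks, 7 had no partner with MC_2580, 1 with RA 0.01 µM, 2 with RA 1 µM and 4 with the combination, where whole lists lost 35.0%, 18.3%, 20.9% and 21.2%. Gained were 0 of 9, 11 of 22, 8 of 19 and 4 of 14 peaks, against 11.2%, 53.9%, 33.3% and 37.1% of the whole lists, and in the RA conditions 9, 7 and 3 of these lay at the defensins. The shares gained were near those of the lists, so the windows as a set do not stand apart by this count.

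Gained peaks of the methyl marks lay only in part at the defensins. H3K4me1 gained 1 of 17, 6 of 25, 5 of 22 and 6 of 23 peaks, against 8.54%, 11.7%, 14.2% and 21.9% of the lists, and 5 of those of each RA condition were at the defensins. Of 22 DMSO peaks it lost 3 with MC_2580 (list 13.1%) and 4 with RA 0.01 µM (list 19.5%), the latter all at AZU1-PRTN3-ELANE, and none with RA 1 µM (list 14.0%) or the combination (list 7.79%). H3K4me2 gained 7 of 37, 6 of 33, 14 of 45 and 8 of 34, against 22.3%, 14.3%, 22.1% and 23.2%. Of these, 2, 5, 8 and 4 lay at the defensins, and 4 of those of MC_2580 lay at AZU1-PRTN3-ELANE. H3K4me2 lost 0, 2, 5 and 2 of 31 DMSO peaks, against 11.0%, 19.7%, 19.5% and 14.4% of the list. H3K4me3 gained 1 of 7, 4 of 11, 2 of 9 and 2 of 9, against 33.5%, 29.2%, 25.6% and 26.6%, and all 7 of its DMSO peaks had a partner in each treatment, where the list lost 2.20%, 3.97%, 6.12% and 6.29%. Those 7 were at MPO, AZU1-PRTN3-ELANE and CTSG.

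**Figure D4:**
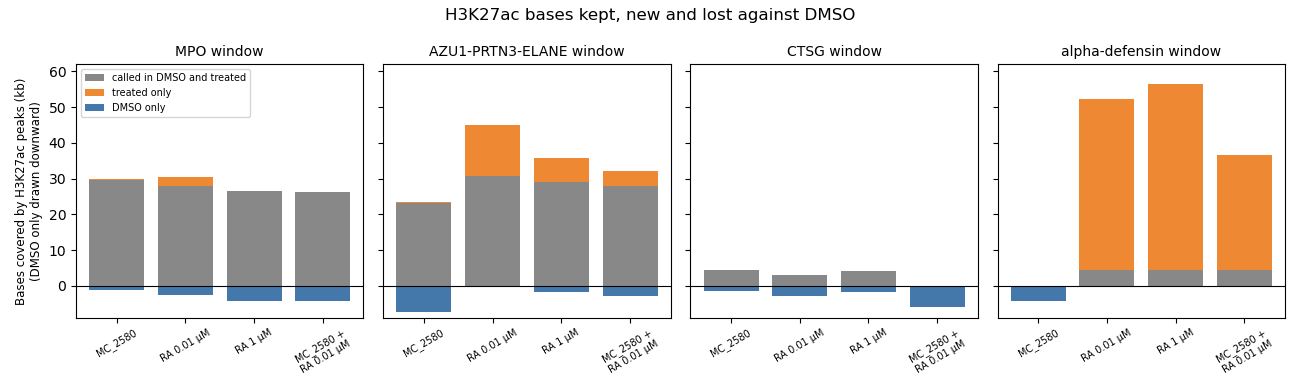
Bases covered by H3K27ac peaks in each window (y axis, kb) for the 4 treatments (x axis), split into bases also covered in DMSO (grey), bases of the treated list alone (orange) and, drawn downward, bases of DMSO alone (blue). Most bases at MPO and AZU1-PRTN3-ELANE are shared with DMSO, CTSG has none left in the combination, and at the defensins 48032, 52085 and 32177 bases are new in the 3 RA conditions.

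LSD1 was called at MPO and at AZU1-PRTN3-ELANE in DMSO, and the area it covered grew there with its inhibitor. At MPO LSD1 had 2 peaks over 6221 bases in DMSO and 3 peaks over 22643 with MC_2580, 3.64 times as much. At AZU1-PRTN3-ELANE it had 6 peaks over 13711 bases and 8 peaks over 29695, 2.17 times as much. CTSG had none and then 1 peak of 1619 bases, and the defensins had none in either list. These are 3 of 4 windows called higher, against 61.2% of tiles, since the whole list grew 1.92-fold. By size, 16 of 12363 tiles (0.129%) gained as many LSD1 bases as MPO and 18 (0.146%) as many as AZU1-PRTN3-ELANE, while 55.1% gained as many as CTSG. The MPO rank counts a gained peak of 10338 bases with a score of 434.39, which is absent in lists of equal length. Divided by the whole-list ratio the values are 1.90 at MPO and 1.13 at AZU1-PRTN3-ELANE, and in lists of equal length they are 1.98 and 1.94. The unequal score floors of the LSD1 lists move with this comparison, and their part in it was not tested.

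Each LSD1 peak of DMSO in these windows had a partner with MC_2580, where the list lost 7.79%, and 5 of the 12 MC_2580 peaks were gained, against 41.4% of the list. The strongest in DMSO was chr17:53712061-53715339 at MPO, with a score of 2260.42 and rank 177 of 12562. It became chr17:53707326-53715318, 7993 against 3279 bases wide, and scored 3100. The other MPO peak, chr17:53715652-53718593, scored 526.52, and both overlap the H3K4me3 domain. A peak of 10338 bases, chr17:53696952-53707289, was gained beside them at a score of 434.39, rank 15826 of 18822, and it is absent in lists of equal length. With it LSD1 peaks reach past both ends of the H3K4me3 domain, and without it they start at 53707326.

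At AZU1-PRTN3-ELANE the strongest LSD1 peak of DMSO was chr19:790338-794731, with a score of 980.48 and rank 1377. Its MC_2580 partner chr19:789894-795305 scored 2669.38. The peaks chr19:776585-777764 and chr19:778348-779369, which scored 259.4 and 324.98 in DMSO, both lay under a peak of 7813 bases with MC_2580, chr19:773307-781119, which scored 2855.41. Of the other 3, chr19:809283-812225 (512.35) overlapped all 4 histone marks in 5 conditions and chr19:799072-801851 (392.27) had no H3K4me3. At chr19:804320-805711 (277.25) H3K4me2 was called in 5 conditions, H3K27ac in 1 and H3K4me1 and H3K4me3 in none. Gained with MC_2580 were chr19:786521-789659 (1042.37), chr19:781539-783590 (582.56) and chr19:770717-772250 (454.6). The gained CTSG peak, chr14:24114677-24116295, scored 393.59, near the floor of its list, a score that 83.0% of the gained LSD1 peaks reach, and is absent in lists of equal length.

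GFI1 had 4 peaks in the windows, 3 of them at MPO. The strongest, chr17:53712984-53715140, scored 814.68 with rank 367 of 29601 and overlapped the strongest LSD1 peak in both lists. The other 2 at MPO, chr17:53699478-53700646 (174.14) and chr17:53708139-53708738 (57.36), overlapped LSD1 peaks of MC_2580 and none of DMSO. The defensin peak, chr8:6788592-6789248, scored 52.47, near the floor of 50, and overlapped no LSD1 peak. AZU1-PRTN3-ELANE, with 6 LSD1 peaks in DMSO, had no GFI1 peak, nor did CTSG. At a minimum score of 100, 2 GFI1 peaks remain, both at MPO.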

How the data were processed

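ChIP-seq peak lists of NB4 cells were analysed, 23 lists of 1 library each. Per the submitters' processing notes the tools were bcl2fastq 2, CASAVA 1.8, FastQC 0.10.0 and 0.11.5, Bowtie 1.0.1 and MACS 1.4.1 on hg18, with no order given. The deposited BED files hold each peak's position and a score from the authors' peak caller, for which MACS writes the log10 of a p-value times 10 with the sign reversed. It was used only within a list. No read counts were used, so the depth of each library is unknown. The LSD1 lists hold only part of the numbered calls, and how these were filtered is not stated in the sources used here. Positions were changed to 1-based, and a negative start was set to 0.

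Windows, members and motifs were chosen with earlier results of these data known. Peaks were counted by 1 base of overlap, and covered bases were merged and clipped to the window. Gained and lost peaks overlap no peak of the other list. Named peaks follow a rule: LSD1 and GFI1 peaks of a window, the widest DMSO peak per mark, and the highest-scoring gained and lost peaks. The lower site at MPO, the empty stretches, the other peaks printed with coordinates and the ranks of changes among tiles were added after seeing the values. Not every peak the rule takes is printed. No test was run with 1 library per group. Overlap code was tested on simulated lists. Python 3.11.15, NumPy 2.4.6, pandas 2.3.3 and Matplotlib 3.10.9 were used. Alternatives were a minimum score of 100, lists of equal length, peak centres in the window, whole peak widths, ratios divided by those of the whole lists, joining within 1 kb and 50% reciprocal overlap.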

Additional observations from a re-analysis of the deposited data

How the results depend on the processing

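No paired analysis was possible because each group has 1 library. No window called higher or lower crossed a ratio of 1 under an alternative, but values short of 1.5-fold did. Division by the whole-list ratio took 19 of 58 ratios of a window, and 4 of 17 over the 4 windows, across 1, and brought 4 window ratios past 1.5-fold that were not called. The other alternatives took at most 4 of 58 and 1 of 17 across, and brought at most 2 past. Of 25 calls of a window as higher or lower, 20 held under every alternative run and 5 were lost under at least 1. Those were, at AZU1-PRTN3-ELANE, H3K4me1 and H3K4me3 with RA 0.01 µM and LSD1, at CTSG LSD1, and at the defensins H3K4me2 with MC_2580. Under division by the whole-list ratio, the ratio over the 4 windows moved to 1.17 for H3K27ac with RA 0.01 µM, 0.746 for H3K4me3 with MC_2580 and 1.41 for LSD1. In lists of equal length the H3K27ac peaks of RA 0.01 µM numbered 14.

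With 50% reciprocal overlap, split or joined peaks count as lost or gained. DMSO peaks lost were then, for H3K4me1, 7 with MC_2580, 13 with RA 0.01 µM, 9 with RA 1 µM and 14 with the combination, for H3K4me2 5, 8, 9 and 9, for H3K4me3 1 with MC_2580 and 1 with RA 0.01 µM, for H3K27ac 9, 8 and 10 in the RA conditions, and 3 for LSD1. Gained were 3, 16, 9 and 15 for H3K4me1, 11, 10 and 23 for H3K4me2 up to RA 1 µM, and 1 with MC_2580 and 9 with the combination for H3K27ac.

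At a minimum score of 100, DMSO peaks lost were 0 (RA 0.01 µM) and 1 (RA 1 µM) for H3K27ac, 1 and 1 (RA 1 µM, combination) for H3K4me1, and 1, 3 and 1 in the RA conditions for H3K4me2. Gained were 7 for H3K27ac and 2 for H3K4me3 with RA 0.01 µM, 1 for H3K4me3 in the combination and 0 for H3K4me1 with MC_2580, and 2 GFI1 peaks remained. Joining peaks within 1 kb left 12 (RA 0.01 µM) and 9 (combination) H3K27ac peaks, 14, 13 and 12 H3K4me1 peaks (DMSO, RA 0.01 µM, combination), 13, 15, 14, 21 and 15 H3K4me2 peaks, and 7 LSD1 peaks with MC_2580. The unknown depth limits what an absent peak means.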
